A study of Mus musculus with 18 samples.

Results

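The 35 genes described here are members of the cellular response to foreign chemicals and oxidants: the transcription factor NRF2, its inhibitor and its targets, the aryl hydrocarbon receptor (AHR) with its feedback genes and targets, and further detoxification enzymes. They were taken by symbol from a list chosen with earlier results of these data known, through the GENCODE M21 annotation of GRCm38. All 35 were found among the 41605 gene IDs listed, and all 35 passed the filter on low counts, which left 16836 genes to test. Expression was measured by bulk RNA sequencing in skin of C57BL/6 mice aged 8-12 weeks. The skin had been treated with detergent B (6 libraries), detergent A (6 libraries) or PBS, the phosphate-buffered saline control (6 libraries), with no other agent or allele named. The series sets each detergent against PBS and, by its title, concerns household laundry detergents and the skin barrier. The labels do not name the products, the dose, the duration, the body site or whether each library is its own animal, so the tests see only how far these libraries spread, which may be technical.

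NRF2, the product of Nfe2l2, is held in the cytoplasm and marked for degradation by KEAP1, whose cysteines react with electrophiles and oxidants. Freed NRF2 enters the nucleus and, with small MAF proteins, binds antioxidant response elements in front of genes for glutathione synthesis, thiol repair and conjugation. AHR is bound by planar aromatic ligands, pairs with ARNT and binds xenobiotic response elements, and its targets include the CYP1 enzymes and its own repressor; in skin, both pathways are active in keratinocytes, the cells that meet a detergent first.

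Depth was 17312623 to 29599018 counts per library, and levels are given as CPM, the count scaled to the library's size, with TMM correction. The libraries differed in tissue content. The 8 markers of differentiated epidermis (such as Flg, Ivl and Lor) summed to 4630 to 6913 CPM with detergent B, 2854 to 5778 CPM with detergent A and 2307 to 4596 CPM with PBS, and 3 of the 8 rose with detergent B and 0 with detergent A. The 9 hair keratins found in the files summed to 1.87 to 175 CPM with detergent B, 0.527 to 268 CPM with detergent A and 13.1 to 454 CPM with PBS, with 0 of 9 past the threshold in either comparison. None of the markers of either list was at 0 in all libraries, and markers of keratinocytes were present in all libraries. The 5 keratinocyte markers summed to 26720 to 46540 CPM with detergent B, 20450 to 50950 CPM with detergent A and 15230 to 30900 CPM with PBS. Their medians were 42140 CPM with detergent B, 30950 CPM with detergent A and 21250 CPM with PBS, and 1 of the 5 rose with detergent B and 0 with detergent A. The part of this difference in the members' values was not tested. PBS replicate 6 stood apart from the other PBS libraries: it had the highest epidermal score and the lowest hair keratin score of the group, and the highest PBS value for 18 of the 35 members and 35.68% of all genes tested. In bulk tissue, fewer cells of a type and less RNA per cell cannot be told apart.

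With detergent B, 4 of the 35 members rose against PBS and 0 fell (adjusted p under 0.05, edgeR quasi-likelihood test, Benjamini-Hochberg over all genes tested), against 3.05% of all genes in either direction, 1.97% upward and 1.08% downward. They were Glrx, Gsta1, Gsto1 and Cyp3a13. With detergent A, 1 member rose and 0 fell, against 0.19% of all genes in either direction and 0.0535% upward; it was Glrx. Both comparisons share the 6 PBS libraries. The median log2 fold change over the members was 0.16 with detergent B and 0.17 with detergent A, beside -0.01 over all genes in each comparison, and 28 members had a positive value with detergent B and 24 with detergent A. The changes were small for most members, and the textbook targets Nqo1, Hmox1, Gclc, Gclm and Txnrd1 did not pass the threshold with either detergent in this test. With another test, limma voomWithQualityWeights, Nqo1 rose with detergent B and Gclc fell with both detergents. That test called 5074 of all genes with detergent B and 3914 with detergent A.

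The counts moved with single libraries. Without PBS replicate 6, 7 members rose with detergent B (the 4 above with Cbr3, Gsta2 and Cyp2b19) and 4 with detergent A (Glrx, Gsta1, Gsto1 and Cyp3a13). All genes called in that fit numbered 1888 with detergent B and 888 with detergent A, against 514 and 32 with all 18 libraries. With detergent B, the count was 1 without PBS replicate 2, 3, 4 or 5 or detergent B replicate 2, 4 or 5, when Glrx alone passed, and 2 without PBS replicate 1, detergent A replicate 4 or 5 or detergent B replicate 6. With detergent A, it was 5 without detergent A replicate 2 or 6, 2 without detergent B replicate 4, and 0 in the fits in which Glrx was lost, named with its values below. Over the fits that left out a library, all genes called ran from 28 to 1888 with detergent B and 0 to 888 with detergent A. With detergent B, they were fewer than 514 in each fit with 1 or 2 members. With detergent A, they were more than 32 in the fits with 2 or 5 members and fewer than 32 in those with 0. In these fits, the members' counts moved in the same direction as those of all genes.

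**Figure D1:**
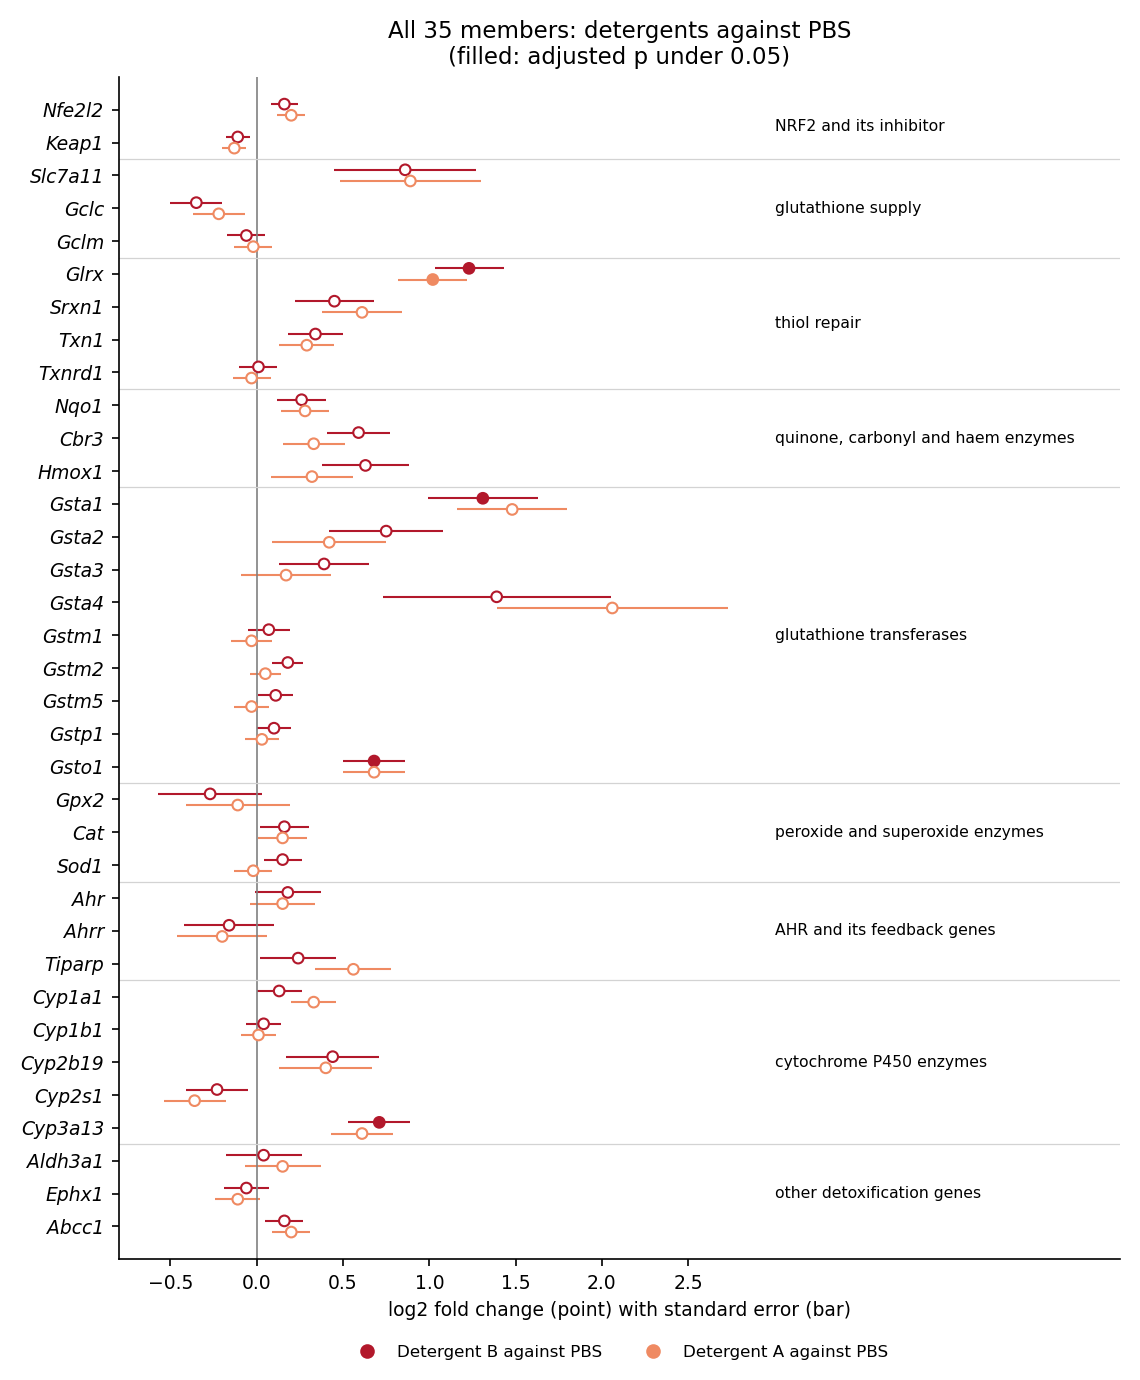
Log2 fold change against PBS (x axis, no unit) of all 35 members, ordered down the page by role. Each point is the estimate and each bar its standard error, detergent B above detergent A; filled points passed an adjusted p of 0.05. The filled points are Glrx, Gsta1, Gsto1 and Cyp3a13 with detergent B and Glrx with detergent A.

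Glrx encodes glutaredoxin-1, which uses glutathione to free protein thiols from mixed disulfides. It lies on chromosome 13 from 75839868 to 75850154 (GRCm38, as are the positions of the other risers). Its level was 149.7, 199.9 and 217 CPM (lowest, median and highest of 6) with detergent B, 92.2, 164 and 239 CPM with detergent A, and 52.8, 81.1 and 107 CPM with PBS. All 6 detergent B libraries lay above all 6 PBS libraries, and 5 of 6 detergent A libraries did. No other member had separate ranges with detergent B, where 1.72% of all genes lay wholly above PBS and 1.12% wholly below, and with detergent A 0 members did, against 0.404% of all genes wholly above PBS and 0.956% wholly below. The log2 fold change was 1.23 ± 0.20 (SE) with detergent B, 2.34-fold (adjusted p = 0.0106), and 1.02 ± 0.20 with detergent A, 2.03-fold (adjusted p = 0.0482). The detergent B call held in all 18 fits that left out a library in turn, with adjusted p from 0.00424 to 0.0402. The detergent A call held in 6 of those 18 fits, with adjusted p from 0.0102 to 0.169, and was lost without PBS replicate 1, 2, 3, 4 or 5, without detergent A replicate 1, 3, 4 or 5 and without detergent B replicate 2, 5 or 6.

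Gsta1 (chromosome 9, 78230656 to 78242684) encodes an alpha-class glutathione S-transferase, which couples glutathione to electrophiles, and per length it had the lowest level of the 4. It had 1.16, 2.0 and 3.07 CPM with detergent B, 0.803, 2.48 and 3.18 CPM with detergent A, and 0.416, 0.785 and 1.18 CPM with PBS. In each detergent group 5 of 6 libraries exceeded the highest PBS library and the lowest did not, so the ranges overlapped. It rose by 1.31 ± 0.32 on the log2 scale with detergent B, 2.49-fold (adjusted p = 0.0384), and its difference with detergent A was 1.48 ± 0.32 (adjusted p = 0.0548). Its neighbour Gsta2 is a near-identical copy and reads may be split between them, so the value of each is uncertain. The detergent B call was lost in 7 of the 18 leave-one-out fits: without PBS replicate 2, 3, 4 or 5 or detergent B replicate 2, 4 or 5.

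Gsto1 (chromosome 19, 47854970 to 47864790) encodes an omega-class transferase, which also reduces dehydroascorbate and works on thiols much as glutaredoxins do. It had 82.4, 129.6 and 148.7 CPM with detergent B, 77.3, 127.7 and 171 CPM with detergent A, and 62.9, 74.5 and 91.6 CPM with PBS. The ranges overlapped, with 5 of 6 detergent B and 4 of 6 detergent A libraries above the highest PBS library. Gsto1 rose by 0.68 ± 0.18 with detergent B, 1.6-fold (adjusted p = 0.0468), and differed by 0.68 ± 0.18 with detergent A (adjusted p = 0.0722). Its detergent B call held in 6 of 18 leave-one-out fits, those without PBS replicate 6, detergent A replicate 2, 3 or 6, or detergent B replicate 1 or 3.

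Cyp3a13 (chromosome 5, 137892932 to 137921619) encodes a mouse member of the CYP3A family of cytochrome P450 enzymes, which oxidise drugs and other foreign compounds. Its level was 16.2, 18.9 and 22.9 CPM with detergent B, 13.3, 17 and 25.9 CPM with detergent A, and 9.6, 10.5 and 18.1 CPM with PBS. Here PBS replicate 6 gave the highest PBS value and reached into both detergent ranges. The rise with detergent B was 0.71 ± 0.18, 1.63-fold (adjusted p = 0.0466), and the difference with detergent A was 0.61 ± 0.18 (adjusted p = 0.104). This detergent B call held in 7 of 18 leave-one-out fits, those without PBS replicate 6, detergent A replicate 1, 2, 3 or 6, or detergent B replicate 1 or 3.

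The 4 rises were also fitted beside the tissue scores. With the hair keratin score as a covariate, the detergent B log2 fold change was 0.86 for Glrx (adjusted p = 0.128), 0.95 for Gsta1 (adjusted p = 0.384), 0.31 for Gsto1 (adjusted p = 0.53) and 0.31 for Cyp3a13 (adjusted p = 0.404). With the differentiated epidermis score instead, it was 0.68 for Glrx (adjusted p = 0.515), 0.93 for Gsta1 (adjusted p = 0.668), 0.29 for Gsto1 (adjusted p = 0.785) and 0.19 for Cyp3a13 (adjusted p = 0.828). Detergent A gave 0.66 (adjusted p = 0.275) and 0.69 (adjusted p = 0.254) for Glrx in these 2 fits. All values kept their sign and none passed the threshold, and 0 of all genes did in either fit for either detergent. The median epidermal score was 8.18 with detergent B, 7.93 with detergent A and 7.37 with PBS, and the median hair keratin score was -0.69 with detergent B, 0.31 with detergent A and 3.37 with PBS, with overlapping ranges, so treatment and tissue make-up cannot be told apart by these fits.

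**Figure D2:**
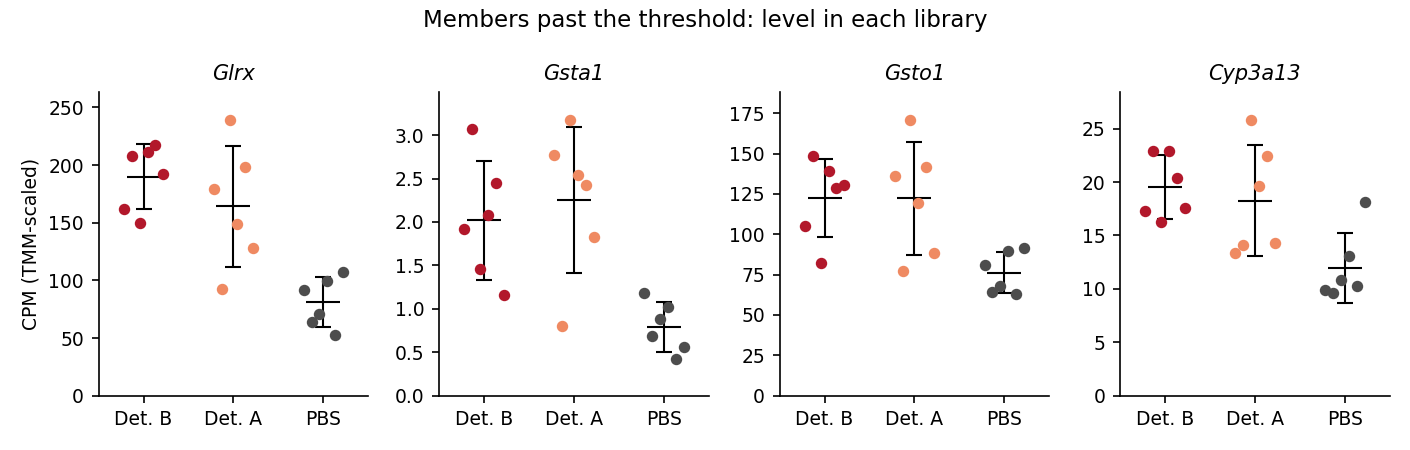
CPM of the 4 members past the threshold in each library (points; y axis CPM, TMM-scaled), with detergent B, detergent A and PBS from left to right, and the group mean and SD (lines, n = 6 each). The Glrx values of detergent B, 149.7 CPM and above, all lie over the PBS values, which end at 107 CPM, and the Cyp3a13 value of PBS replicate 6 reaches 18.1 CPM.

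The promoters of the 4 risers are shown because both pathways act through short elements in front of their targets. The 250 bases before the annotated start are from RefSeq (GRCm38.p6), 5′ to 3′ on the gene's strand, with capitals for any match to TGACNNNGC, a core of the antioxidant response element, or GCGTG, a core of the xenobiotic response element, on either strand. The windows are Glrx (chr13:75839635-75839884, plus strand), Gsta1 (chr9:78230419-78230668, plus strand), Gsto1 (chr19:47854723-47854972, plus strand) and Cyp3a13 (chr5:137921620-137921869, minus strand).
Glrx: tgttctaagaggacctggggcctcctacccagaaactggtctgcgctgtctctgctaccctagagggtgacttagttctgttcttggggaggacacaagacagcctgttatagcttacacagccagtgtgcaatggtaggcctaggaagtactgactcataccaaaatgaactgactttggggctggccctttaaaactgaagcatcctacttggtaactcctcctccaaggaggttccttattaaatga
Gsta1: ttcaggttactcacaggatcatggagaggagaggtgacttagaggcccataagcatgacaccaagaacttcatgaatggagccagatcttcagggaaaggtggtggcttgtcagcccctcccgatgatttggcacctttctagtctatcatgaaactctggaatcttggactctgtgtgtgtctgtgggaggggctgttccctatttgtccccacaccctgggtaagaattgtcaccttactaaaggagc
Gsto1: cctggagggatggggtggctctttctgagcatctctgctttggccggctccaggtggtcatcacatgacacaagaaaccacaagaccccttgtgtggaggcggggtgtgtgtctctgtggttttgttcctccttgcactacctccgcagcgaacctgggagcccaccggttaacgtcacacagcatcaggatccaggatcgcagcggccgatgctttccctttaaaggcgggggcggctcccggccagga
Cyp3a13: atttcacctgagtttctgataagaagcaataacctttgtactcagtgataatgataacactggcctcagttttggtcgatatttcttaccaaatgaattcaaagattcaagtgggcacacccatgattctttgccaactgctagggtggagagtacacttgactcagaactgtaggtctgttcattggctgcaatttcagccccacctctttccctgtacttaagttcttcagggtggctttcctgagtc
No window of the 4 holds either core, so none has capitals. A core was sought in all 33 RefSeq promoters of the 29 members that matched; the other 6 members were Hmox1, Gclc, Gsta4, Ahr, Aldh3a1 and Abcc1. TGACNNNGC occurred for 6 of the 29 members and GCGTG for 14 of 29, while TGACNNNGC occurred in 10.2% and GCGTG in 28.2% of 32851 promoters of this length. A member counted if any of its promoters matched, while the background counts single promoters, so these shares are of unlike units. A match is a description of these letters, and elements further from the start were not sought.

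Nfe2l2 (NRF2) and Keap1 themselves moved little. Nfe2l2 had 94.5, 102.7 and 113 CPM with detergent B, 91.6, 108 and 124 CPM with detergent A, and 86.3, 93.4 and 97.4 CPM with PBS. The log2 fold change of Nfe2l2 was 0.16 ± 0.08 with detergent B (adjusted p = 0.222) and 0.20 ± 0.08 with detergent A (adjusted p = 0.169). Keap1 had 52.5, 62.1 and 65.0 CPM with detergent B, 54.0, 61.2 and 65.4 CPM with detergent A, and 61.5, 65.8 and 70.7 CPM with PBS. The Keap1 log2 fold changes were -0.11 ± 0.07 with detergent B (adjusted p = 0.316) and -0.13 ± 0.07 with detergent A (adjusted p = 0.297). The ranges of both genes overlapped between groups, and NRF2 is regulated mainly through its protein, which these data do not measure. An antisense transcript, Gm16754, overlaps Keap1, and without a stated strand setting their reads may be mixed.

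Glutathione supply rests on cystine uptake and on glutamate-cysteine ligase, the rate-limiting enzyme of glutathione synthesis. Slc7a11, the cystine importer, had 6.08, 10.03 and 12.5 CPM with detergent B, 1.71, 10.3 and 17.7 CPM with detergent A, and 2.18, 5.32 and 7.71 CPM with PBS. Detergent A libraries of Slc7a11 spanned a wider range than the other groups, from under the lowest PBS value to above every other library. For Slc7a11 the log2 fold change was 0.86 ± 0.41 with detergent B (adjusted p = 0.217) and 0.89 ± 0.41 with detergent A (adjusted p = 0.252). The catalytic subunit gene Gclc had 42.8, 50.2 and 77.3 CPM with detergent B, 45.1, 57.8 and 80.5 CPM with detergent A, and 51.0, 72.4 and 78.3 CPM with PBS. Its values were -0.35 ± 0.15 with detergent B (adjusted p = 0.183) and -0.22 ± 0.15 with detergent A (adjusted p = 0.451), and its lowest PBS library was replicate 6. Gclm, the modifier subunit, had 28.6, 34.0 and 41.5 CPM with detergent B, 29.9, 35.3 and 42.5 CPM with detergent A, and 28.2, 36.6 and 40.7 CPM with PBS, with a log2 fold change of -0.06 ± 0.11 with detergent B (adjusted p = 0.781) and -0.02 ± 0.11 with detergent A (adjusted p = 0.954). Transcripts overlap Gclm on the same strand (Gm6061) and on the opposite strand (Gm17494), so its values are uncertain. None of Slc7a11, Gclc and Gclm passed the threshold in the edgeR test, and the signs of Gclc and Gclm turned with the tissue covariates. With the hair keratin and the epidermal score, Gclc was 0.03 and 0.08 with detergent B and 0.14 and 0.03 with detergent A, and Gclm was 0.20 and 0.17 with detergent B and 0.22 and 0.12 with detergent A. The Gclm promoter holds 1 TGACNNNGC and 3 GCGTG matches; it is shown because Gclm is a textbook NRF2 target (chr3:122245307-122245556, plus strand), with the matches in capitals.
Gclm: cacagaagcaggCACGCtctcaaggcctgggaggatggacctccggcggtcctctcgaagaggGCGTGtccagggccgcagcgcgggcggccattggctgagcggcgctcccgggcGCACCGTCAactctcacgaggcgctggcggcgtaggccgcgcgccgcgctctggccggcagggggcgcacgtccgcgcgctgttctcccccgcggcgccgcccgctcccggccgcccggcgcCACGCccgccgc

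Thiol repair apart from Glrx showed no call in the edgeR test with all 18 libraries. Limma voomWithQualityWeights called Srxn1 with detergent A and Txn1 with detergent B, both upward. Srxn1, sulfiredoxin, which restores over-oxidised peroxiredoxins, had 76.9, 88.8 and 122 CPM with detergent B, 46.0, 112 and 162 CPM with detergent A, and 58.3, 64.8 and 93.6 CPM with PBS. Its log2 fold change was 0.45 ± 0.23 with detergent B (adjusted p = 0.252) and 0.61 ± 0.23 with detergent A (adjusted p = 0.175), and its ranges overlapped. Txnrd1, thioredoxin reductase, was flat, with 161.7, 197 and 251 CPM with detergent B, 149, 191 and 228 CPM with detergent A, and 181, 192 and 209 CPM with PBS. Its log2 fold change was 0.01 ± 0.11 with detergent B (adjusted p = 0.952) and -0.03 ± 0.11 with detergent A (adjusted p = 0.9).

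None of the quinone, carbonyl and haem enzymes passed in the edgeR test with all 18 libraries, and their estimates were positive. With the hair keratin and epidermal covariates, Cbr3 was 0.23 and 0.18 with detergent B and -0.02 and 0.08 with detergent A. Hmox1 was larger, at 1.03 and 1.03 with detergent B (adjusted p = 0.12 and 0.515). With detergent A, Hmox1 was 0.69 and 0.54 in these fits (adjusted p = 0.341 and 0.446). Nqo1, a quinone reductase and the classical NRF2 reporter gene, had 11.8, 12.4 and 14.4 CPM with detergent B, 9.38, 13.1 and 17 CPM with detergent A, and 8.28, 10.8 and 13.2 CPM with PBS, with log2 fold changes of 0.26 ± 0.14 with detergent B (adjusted p = 0.272) and 0.28 ± 0.14 with detergent A (adjusted p = 0.295). Cbr3, a carbonyl reductase, had 29.5, 45.1 and 56.2 CPM with detergent B, 24.7, 36.7 and 53.6 CPM with detergent A, and 24.04, 30.4 and 34.1 CPM with PBS. For Cbr3, 5 of 6 detergent B and 4 of 6 detergent A libraries exceeded the highest PBS library. The estimates were 0.59 ± 0.18 with detergent B (adjusted p = 0.0682) and 0.33 ± 0.18 with detergent A (adjusted p = 0.316). Cbr3 with detergent B passed under DESeq2, under limma voomWithQualityWeights, with only the 12 libraries compared and in 4 of 18 leave-one-out fits. It did not pass with RLE size factors, no filter, a replicate block or either tissue covariate. Hmox1, haem oxygenase-1, had 135, 335 and 529 CPM with detergent B, 189, 251 and 413 CPM with detergent A, and 168, 222 and 268 CPM with PBS. Its detergent B libraries held both the lowest and the highest value of the series, and its estimates were 0.63 ± 0.25 with detergent B (adjusted p = 0.137) and 0.32 ± 0.24 with detergent A (adjusted p = 0.5).

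**Figure D3:**
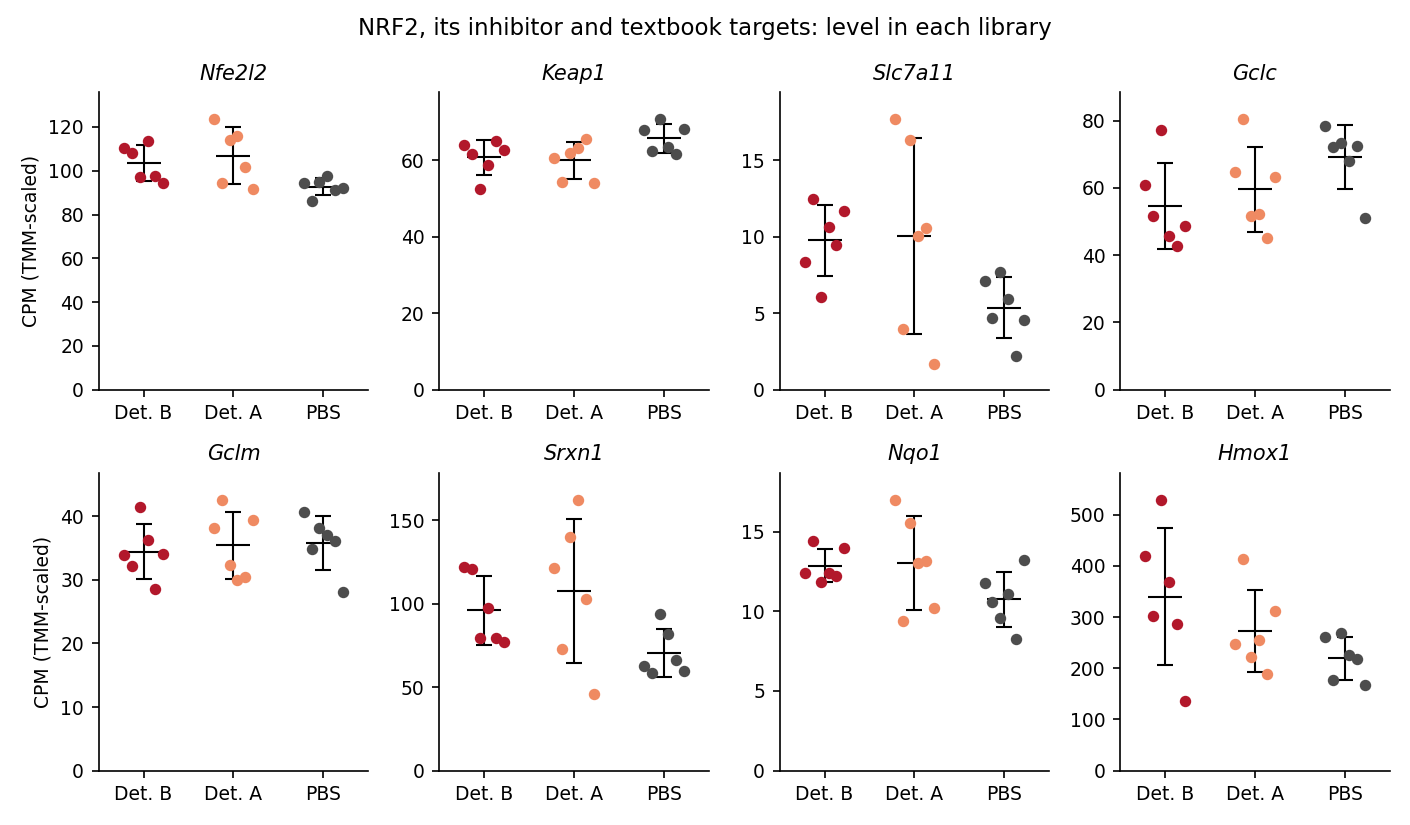
CPM of NRF2, KEAP1 and 6 textbook target genes in each library (points; y axis CPM, TMM-scaled), with detergent B, detergent A and PBS from left to right, and the group mean and SD (lines, n = 6 each). The groups overlap for each gene, and for Slc7a11 and Srxn1 the detergent A libraries spread from 1.71 to 17.7 CPM and from 46.0 to 162 CPM.

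Among the 9 glutathione transferases, the 2 that rose with detergent B were Gsta1 and Gsto1, and 0 rose with detergent A. Gsta4, which conjugates the lipid peroxidation product hydroxynonenal, had the largest estimates of the members and wide spread: 7.81, 43.0 and 80.7 CPM with detergent B, 7.1, 55.3 and 185.6 CPM with detergent A, and 6.49, 10.7 and 32.6 CPM with PBS. The lowest library of each detergent group fell within the PBS range, and 5 of 6 detergent B and 4 of 6 detergent A libraries exceeded the highest PBS library. Its log2 fold change was 1.39 ± 0.66 with detergent B (adjusted p = 0.216) and 2.06 ± 0.67 with detergent A (adjusted p = 0.127). The remaining transferases, Gsta2, Gsta3, Gstm1, Gstm2, Gstm5 and Gstp1, had estimates between 0.07 and 0.75 with detergent B and between -0.03 and 0.42 with detergent A. Reads of the mu-class copies and of Gstp1 and its close copy Gstp2 may be shared, so these values are uncertain.

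Peroxide and superoxide enzymes did not pass. Gpx2, a glutathione peroxidase of epithelia, had 3.83, 6.27 and 7.62 CPM with detergent B, 3.21, 5.91 and 11.8 CPM with detergent A, and 2.74, 7.21 and 11.49 CPM with PBS, with log2 fold changes of -0.27 ± 0.30 with detergent B (adjusted p = 0.614) and -0.11 ± 0.30 with detergent A (adjusted p = 0.876). Catalase (Cat) had 159.6, 203 and 242 CPM with detergent B, 158, 191 and 266 CPM with detergent A, and 154, 168 and 266 CPM with PBS. Its estimates were 0.16 ± 0.14 with detergent B (adjusted p = 0.507) and 0.15 ± 0.14 with detergent A (adjusted p = 0.609). Sod1, the cytosolic superoxide dismutase, had 75.1, 90.1 and 128 CPM with detergent B, 72.9, 83.1 and 96.4 CPM with detergent A, and 74.4, 84.0 and 99.6 CPM with PBS, and estimates of 0.15 ± 0.11 with detergent B (adjusted p = 0.42) and -0.02 ± 0.11 with detergent A (adjusted p = 0.942). For Cat and Gpx2 the estimate is smaller than or close to its standard error in both comparisons.

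The AHR arm held no call in the edgeR test. Limma voomWithQualityWeights called Tiparp and Cyp1a1 with detergent A and Ahr with detergent B, each upward. Ahr had 43.9, 65.8 and 72.5 CPM with detergent B, 46.9, 65.8 and 77.4 CPM with detergent A, and 42.1, 49.5 and 98.7 CPM with PBS. Its log2 fold change was 0.18 ± 0.19 with detergent B (adjusted p = 0.579) and 0.15 ± 0.19 with detergent A (adjusted p = 0.693), and PBS replicate 6 gave the PBS maximum. With the hair keratin and epidermal covariates, Ahr was -0.15 and -0.36 with detergent B and -0.16 and -0.16 with detergent A. Ahrr, the AHR repressor and a target of AHR, had 3.38, 5.44 and 5.88 CPM with detergent B, 3.16, 4.73 and 6.96 CPM with detergent A, and 3.98, 4.94 and 11.7 CPM with PBS, and estimates of -0.16 ± 0.26 with detergent B (adjusted p = 0.733) and -0.20 ± 0.26 with detergent A (adjusted p = 0.702). Tiparp, an AHR target whose product limits AHR, had 35.4, 45.1 and 69.1 CPM with detergent B, 30.5, 61.5 and 86.8 CPM with detergent A, and 33.7, 39.0 and 50.04 CPM with PBS. The Tiparp estimates were 0.24 ± 0.22 with detergent B (adjusted p = 0.533) and 0.56 ± 0.22 with detergent A (adjusted p = 0.191). Transcripts overlapping Ahr (Gm48236) and Tiparp (4931440P22Rik) make those values uncertain. The Ahrr promoter is given because it carries 3 GCGTG matches and no TGACNNNGC (chr13:74292332-74292581, minus strand), with the matches in capitals.
Ahrr: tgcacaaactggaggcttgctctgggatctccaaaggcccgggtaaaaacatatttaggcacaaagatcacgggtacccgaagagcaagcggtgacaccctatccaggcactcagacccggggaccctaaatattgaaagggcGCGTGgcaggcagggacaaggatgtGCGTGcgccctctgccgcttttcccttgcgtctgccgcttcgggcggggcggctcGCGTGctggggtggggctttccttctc

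Cyp1a1, the enzyme most used as a readout of AHR activity, had 30.0, 46.2 and 47.4 CPM with detergent B, 36.7, 46.4 and 58.5 CPM with detergent A, and 30.8, 38.0 and 44.1 CPM with PBS. The Cyp1a1 log2 fold change was 0.13 ± 0.13 with detergent B (adjusted p = 0.566) and 0.33 ± 0.13 with detergent A (adjusted p = 0.19). With the hair keratin and epidermal covariates, Cyp1a1 was -0.10 and -0.18 with detergent B and kept its sign with detergent A. Cyp1b1 had 35.1, 38.2 and 41.1 CPM with detergent B, 34.96, 37.2 and 40.6 CPM with detergent A, and 31.0, 35.2 and 51.6 CPM with PBS. Its estimates were 0.04 ± 0.10 with detergent B (adjusted p = 0.845) and 0.01 ± 0.10 with detergent A (adjusted p = 0.956). For Cyp1a1 and Cyp1b1 the ranges of all 3 groups overlapped. For Cyp1a1, 4 of 6 detergent B and 5 of 6 detergent A libraries exceeded the highest PBS library. In addition, 1 detergent B library lay under the lowest PBS library. For Cyp1b1, 0 libraries of either detergent exceeded the highest PBS library. Cyp2b19, a keratinocyte epoxygenase, and Cyp2s1 gave 0.44 and -0.23 with detergent B and 0.40 and -0.36 with detergent A. Aldh3a1, Ephx1 and Abcc1, an aldehyde dehydrogenase, an epoxide hydrolase and an efflux pump, gave estimates between -0.06 and 0.16 with detergent B and between -0.11 and 0.20 with detergent A. Of the 12 members not given in full (Txn1, the other 6 transferases and these 5 enzymes), 0 passed with either detergent in the edgeR test. Transcripts overlapping Cyp2s1 (Gm26707, opposite strand) and Ephx1 (Gm36961, same strand) make those values uncertain.

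**Figure D4:**
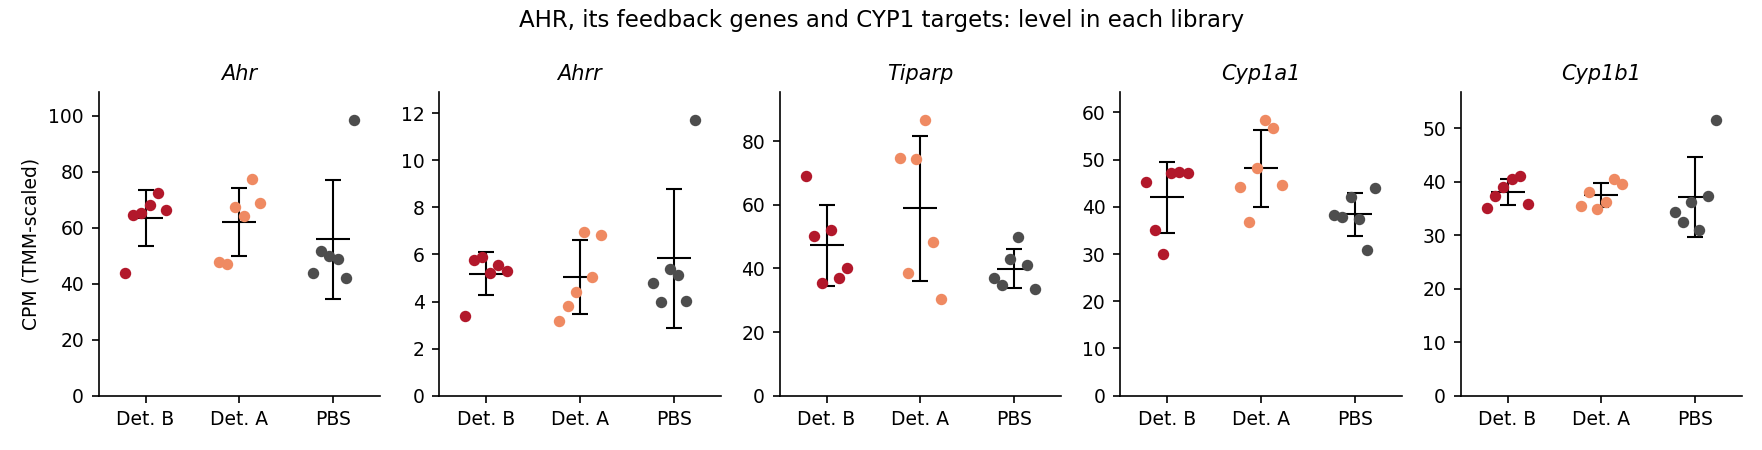
CPM of AHR, its feedback genes and the CYP1 enzymes in each library (points; y axis CPM, TMM-scaled), with detergent B, detergent A and PBS from left to right, and the group mean and SD (lines, n = 6 each). PBS replicate 6 lies far over the rest of its group for Ahr (98.7 CPM), Ahrr (11.7 CPM) and Cyp1b1 (51.6 CPM).

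Detergent B set directly against detergent A gave 0 calls among the 35 members, with 0.0% of all genes called. The smallest adjusted p of a member was 0.989, an unadjusted p under 0.05 was reached by 0 members and 550 genes, and 0 genes were called by DESeq2 or by limma voom. For the risers, the log2 difference of detergent B from detergent A was 0.21 ± 0.20 for Glrx, -0.16 ± 0.30 for Gsta1, 0.0022 ± 0.18 for Gsto1 and 0.10 ± 0.18 for Cyp3a13. A p above the threshold does not show that the detergents acted alike; the members' estimates ran from -0.67 (Gsta4) to 0.33 (Gsta2).

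The libraries of a group varied in the share of members, and of all genes tested, that lay outside the PBS range. Detergent B replicate 4 had 20 members above the PBS range (57.14% of the members, against 27.78% of all genes tested) and 4 below (11.43%, against 27.86%). Detergent B replicate 3 had 6 members above (17.14%, against 13.03% of all genes) and 3 below (8.571%, against 15.91%). In detergent A replicate 4, 16 members lay above (45.71%, against 24.63% of all genes) and 1 below (2.857%, against 27.31%). These libraries held the most and the fewest members above PBS with detergent B and the most with detergent A. Detergent A replicate 3 had 15 members above (42.86%, against 26.18% of all genes) and 5 below (14.29%, against 29.0%). In detergent A replicate 2, 4 members lay above (11.43%, against 11.91% of all genes) and 3 below (8.571%, against 13.32%). Detergent A replicate 1 had 13 above (37.14%, against 23.33% of all genes) and 10 below (28.57%, against 23.03%), so its share below PBS was near that of all genes. The epidermal score, the mean log2 CPM of the 8 markers, was highest in detergent B replicate 4 (8.53) and lowest in detergent B replicate 3 (7.94). Among detergent A libraries it was highest in replicate 3 (8.51) and lowest in replicate 2 (7.33), and replicate 4, with the most members above PBS, was at 7.70, under the group median of 7.93. Its part in the members' values was not tested here beyond the covariate fits.

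**Figure D5:**
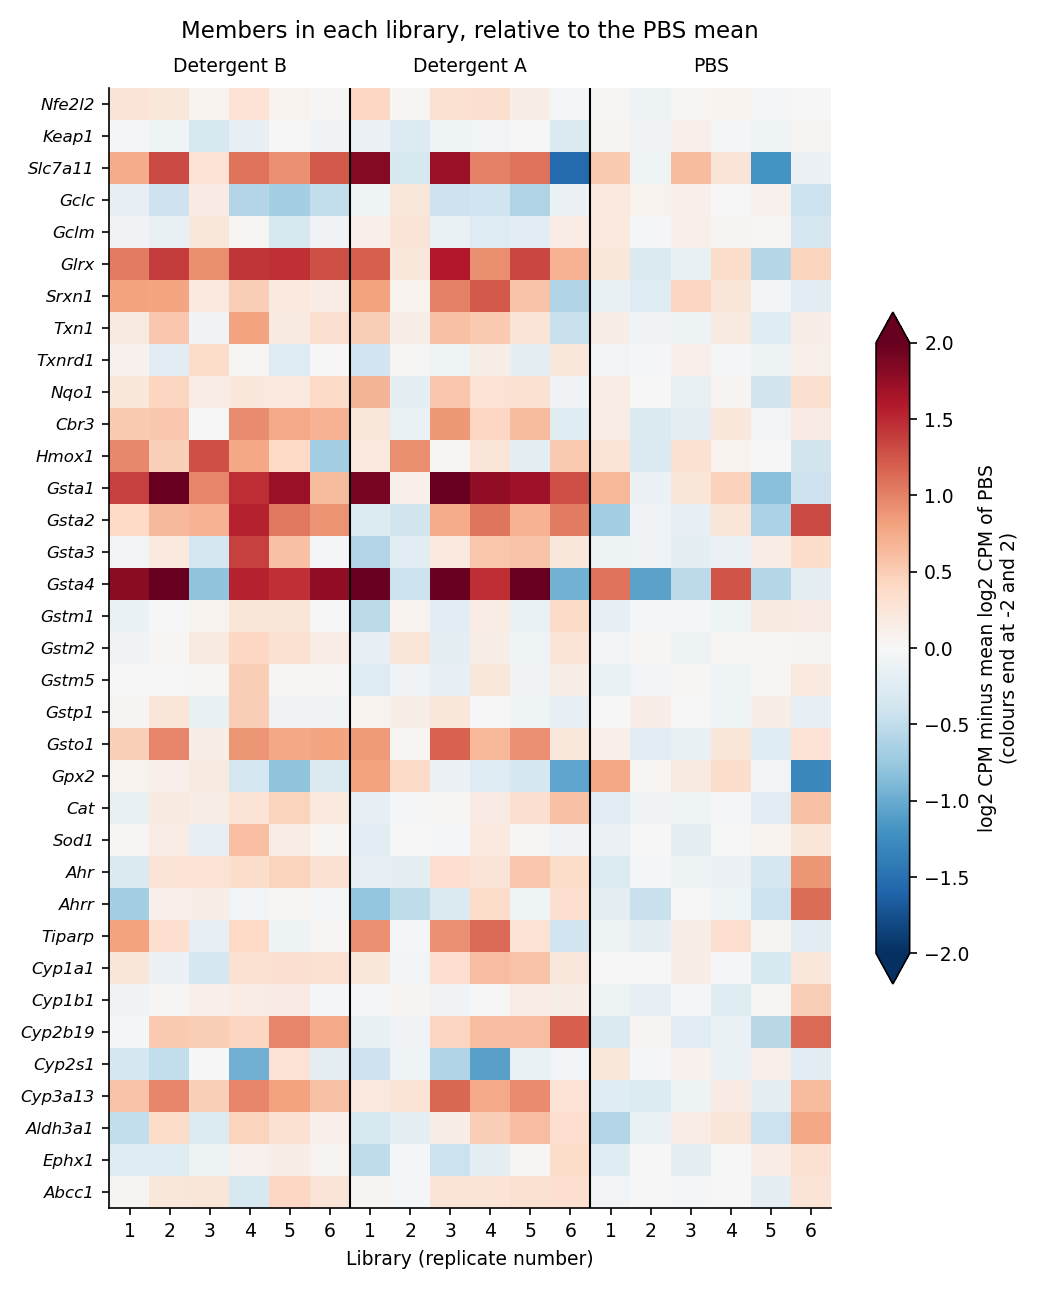
Log2 CPM of each member minus its mean over the PBS libraries (colour, ending at -2 and 2), for the 18 libraries in columns, detergent B then detergent A then PBS, with members down the page by role. Glrx is positive in each detergent library, while PBS replicate 6 is positive for Gsta2, Cyp2b19, Ahr and Ahrr.

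Within groups, some members rose and fell together across the 18 libraries. Correlations used log2 CPM centred on the group means, with p by 100000 permutations within groups and adjusted over 17 relations. For Nfe2l2 with Srxn1, r was 0.84 and rho 0.86 (adjusted permutation p = 0.00654 and 0.00255), and r was 0.83 without the 2 libraries farthest from the median. For Nfe2l2 with Txn1, r was 0.77 and rho 0.78 (adjusted permutation p = 0.00714 and 0.00986), and 0.69 without 2 libraries. Nfe2l2 with Slc7a11 gave r of 0.71 and rho of 0.59 (adjusted permutation p = 0.0144 and 0.0486), and 0.51 without 2 libraries. Nfe2l2 with Glrx, Gclc, Gclm, Txnrd1, Nqo1 and Hmox1 had r between -0.37 and 0.60 and rho between -0.21 and 0.49, and passed by neither measure, and with the hair keratin and epidermal scores r was -0.24 and -0.03. For Ahr with Ahrr, r was 0.86 and rho 0.76 (adjusted permutation p = 0.00714 and 0.0117), and 0.70 without 2 libraries. Ahr with Cyp1b1 gave r of 0.73 and rho of 0.59 (adjusted permutation p = 0.0393 and 0.0343), and 0.39 without the 2 libraries, so it rests on those samples. For Ahr with Cyp1a1, r was 0.43 (adjusted permutation p = 0.132) and rho 0.58 (adjusted permutation p = 0.0486), and r was 0.53 without the 2 libraries, so the rank correlation passed and Pearson's r did not. Ahr with Tiparp gave r of -0.31 and rho of -0.35 (adjusted permutation p = 0.281 and 0.306). Ahr also correlated with tissue content. With the epidermal score r was 0.77 and rho 0.78 (adjusted permutation p = 0.00654 and 0.00595), and 0.78 without 2 libraries. With the hair keratin score r was -0.71 and rho -0.70 (adjusted permutation p = 0.00799 and 0.0135), and -0.65 without 2 libraries.

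Per kilobase of annotated exon, the PBS level (RPKM, mean ± SD, n = 6) was highest for Txn1, thioredoxin, at 156 ± 17.7. Hmox1 followed at 125 ± 23.6 and Cat at 69.2 ± 16.3. The lowest were Slc7a11 at 0.386, Ahrr at 0.618 and Gsta1 at 0.828. The length counts every exon base annotated for a gene, from 1051 for Txn1 to 3970 for Sod1 and 13922 for Slc7a11. The order therefore depends on the annotation as well as on the level. Thioredoxin stood at 198 ± 43.7 with detergent B and 190 ± 45.0 with detergent A, a wider spread than with PBS, and it did not pass in the edgeR test.

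Genes of the same pathways outside the 35 were counted from lists. Of 38 further NRF2 genes tested, 1 rose with detergent B and 0 with detergent A, beside 1.97% of all genes with detergent B and 0.0535% with detergent A. The same shares apply to the lists that follow, and counts near them say nothing particular of a list. The median log2 fold change over the NRF2 genes was 0.16 with detergent B and 0.12 with detergent A. The gene that rose was G6pdx, the first enzyme of the pentose phosphate pathway, which supplies NADPH for glutathione and thioredoxin reduction. G6pdx had 175, 197 and 214 CPM with detergent B, 173, 185 and 239 CPM with detergent A, and 132, 147 and 164.5 CPM with PBS, with ranges apart from PBS in both. It rose by 0.39 ± 0.09 with detergent B (adjusted p = 0.0276) and gave 0.39 ± 0.09 with detergent A (adjusted p = 0.0548). Of 14 further AHR genes tested, 0 rose or fell with either detergent, with medians of 0.04 with detergent B and 0.09 with detergent A. Of 25 other antioxidant enzymes, 1 rose with detergent B, Txnrd3, a thioredoxin reductase (0.65 ± 0.14, adjusted p = 0.0247), and 0 with detergent A. Of 30 other drug-metabolising genes tested, 2 rose with detergent B, Sult2b1, which sulfonates cholesterol in epidermis (0.79 ± 0.19, adjusted p = 0.0384), and Ephx3, an epoxide hydrolase (0.66 ± 0.16, adjusted p = 0.0402), and 0 with detergent A. None of these lists had a gene that fell with either detergent.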

How the data were processed

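Whole-number counts of reads per gene, not normalised, were deposited by the authors as 1 file per library. The submitters' processing notes name STAR, featureCounts and GRCm38.p5; for strand, multiply matching reads and versions, details are not given in the sources used. Per the labels' protocols, total RNA was isolated from skin kept in RNAlater. Of 41605 gene IDs, 41519 matched GENCODE M21. Genes were tested with edgeR 4.0.16 (R 4.3.3): the default low-count filter kept 16836 genes and at least 99.886% of each library's counts, sizes were scaled by TMM, and a robust quasi-likelihood fit with group as the only term used all 18 libraries (15 residual degrees of freedom). Standard errors are the log2 fold change divided by the square root of F. Tissue scores are mean log2 CPM of the markers (prior count 2). RPKM is TMM-scaled CPM per kilobase of exon, counting every exon base annotated for the gene. The members and lists were chosen with earlier results of these data known. Values are given in full for members past the threshold, the 6 of smallest p per detergent and a fixed list. Alternatives were DESeq2 1.42.0, limma 3.58.1 voomWithQualityWeights, RLE size factors, no filter, only the 12 libraries compared, a replicate block, tissue covariates and each library left out. The pipeline was tested on simulated data. No pair of libraries agreed within sampling noise (chi-square per gene at least 9.527).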

Additional observations from a re-analysis of the deposited data

Results flagged for a closer look

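A total of 12 of 105 groups of 6 libraries (35 members in 3 groups) had a highest or lowest library far from the rest (Dixon's test of the gap to the nearest library, at the 95% level). Chance flags about 1 in 20 groups. Detergent B replicate 4 was high for Gstm5 (69.17 CPM, the next at 50.77) and Sod1 (128.3 CPM, the next at 93.74). Detergent B replicate 1 was low for Ahr (43.85 CPM, the next at 64.53) and Ahrr (3.381 CPM, the next at 5.202). In PBS, all flags were in replicate 6. It was high for Gsta2 (11.68 CPM, the next at 5.499), Cat (266.2 CPM, the next at 175.5), Ahr (98.67 CPM, the next at 51.75) and Ahrr (11.73 CPM, the next at 5.403). It was also high for Cyp1b1 (51.62 CPM, the next at 37.29), Cyp2b19 (396.1 CPM, the next at 189.1) and Abcc1 (223.6 CPM, the next at 183.9), and low for Gclc (50.95 CPM, the next at 68.18). None of these 12 groups belonged to a member past the threshold.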

How the results depend on the processing

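Of 1300 alternative values of 50 single-gene results, 1132 kept their direction and side of the threshold, 60 lost a call, 35 gained one and 73 changed sign, all 73 in results that had not been called. The count of members called against PBS was 4 with detergent B and 1 with detergent A. It was 13 with detergent B and 13 with detergent A under limma voomWithQualityWeights, 5 and 5 under DESeq2, 2 and 0 with no filter, 5 and 0 with only the 12 libraries compared, and 0 and 0 with either tissue score as a covariate. Limma called, beside the 4 risers, Cbr3, Gsta2, Cyp2b19, Nqo1, Txn1, Cat, Ahr and Abcc1 upward and Gclc downward with detergent B. With detergent A, it called the same 4, Nfe2l2, Srxn1, Tiparp, Cyp1a1, Gsta2, Cyp2b19 and Abcc1 upward and Gclc and Cyp2s1 downward. Leaving out each library gave 1 to 7 members with detergent B and 0 to 5 with detergent A. All genes called numbered 514 with detergent B and 32 with detergent A, of 16836 tested. They were 5074 and 3914 under limma voomWithQualityWeights, 1391 and 797 under DESeq2 and 251 and 25 with no filter. They were 737 and 24 with only the 12 libraries compared, 0 and 0 with either covariate, and 28 to 1888 and 0 to 888 with a library left out. With detergent B against detergent A the count was 0 in each of these. The labels name no pairing of the samples by replicate number. Of 18 same-numbered pairs, 8 correlated above 0.1 (from -0.348 to 0.546). Each library was also compared with the libraries of each other group, and in 8 of these 36 comparisons its own number correlated best. These correlations differ in sign between pairs, so they cannot settle whether samples were paired. A replicate block left 1 member with detergent B and 0 with detergent A, and 377 and 0 genes. The cause of these shifts was not tested.

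Sign changes with detergent B came under the hair keratin and the epidermis covariate for Gclc (0.03 and 0.08), Gclm (0.20 and 0.17), Gpx2 (0.25 and 0.55), Cat (-0.04 and -0.23), Sod1 (-0.01 and -0.01), Ahr (-0.15 and -0.36), Cyp1a1 (-0.10 and -0.18) and Cyp1b1 (-0.06 and -0.12), under the epidermis covariate for Txnrd1 (-0.02), and under limma for Txnrd1 (-0.04) and Ahrr (0.14). With detergent A they came under both covariates for Gclc (0.14 and 0.03), Gclm (0.22 and 0.12), Gpx2 (0.39 and 0.34), Cat (-0.03 and -0.08), Ahr (-0.16 and -0.16) and Cyp1b1 (-0.07 and -0.07), under the hair keratin covariate for Txnrd1 (0.05) and Cbr3 (-0.02), and under limma for Sod1 (0.04) and Ahrr (0.01). For detergent B against detergent A, Gsto1 was -0.0056 with RLE size factors, -0.0049 with no filter, -0.0075 under DESeq2, -0.02 under limma, -0.01 with 12 libraries, and -0.02 and -0.16 with the covariates; with the epidermis covariate Glrx was -0.01 and Cyp3a13 -0.11. With a library left out, the ranges that crossed 0 were, with detergent B, Ahrr (-0.25 to 0.16), Cyp1b1 (-0.0081 to 0.16) and Txnrd1 (-0.07 to 0.06), with detergent A, Ahrr (-0.32 to 0.12), Cyp1b1 (-0.03 to 0.13), Gclm (-0.08 to 0.03), Gpx2 (-0.33 to 0.07), Sod1 (-0.06 to 0.03) and Txnrd1 (-0.09 to 0.03), and, between the detergents, Gsto1 (-0.10 to 0.12). Gsta1, with a median of 0.785 CPM in PBS, is the called member most limited by depth.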
